A study of Macaca mulatta with 8 samples.

Results

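The tumour necrosis factor (TNF) superfamily was examined in uLPS-exposed primary rhesus macaque microglia through 10 of its genes: the ligands TNF, LTB, TNFSF9, TNFSF10, TNFSF13, TNFSF13B and TNFSF15, and the receptors TNFRSF1A, TNFRSF1B and TNFRSF9. They were picked by symbol from the deposited counts of 35432 genes. A row with the symbol was found for 9 of the 10, comprising 6 ligands and 3 receptors, and no row carried TNFSF13. Of all rows, 11503 had no symbol. Microglia were isolated from subcortical white matter of 4 donors: the males R07110 (13 years) and R12016 (9 years) and the females R02046 (19 years) and R14143 (6 years). Every culture received M-CSF and, on day 7 of 8, 10 µg/mL of ultrapure LPS (uLPS), a TLR4 agonist, for 16 h. One culture of each donor was pre-incubated for 1 h with 5 µM MRS2578, an antagonist of the UDP receptor P2RY6, and the other received uLPS alone, giving 8 RNA libraries, 4 per condition. Cultures without uLPS were not analysed here, so levels are those after TLR4 engagement and not a response to it.

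TNF superfamily ligands are mostly trimeric membrane proteins, some of which are released by proteases, and they act by clustering receptors on the target cell. Receptors with a death domain, such as TNFRSF1A, can signal through TRADD and caspase-8, whereas TNFRSF1B and TNFRSF9 recruit TRAF adaptors that activate NF-κB. TLR4 engagement also activates NF-κB, and microglia are a known source of TNF in the brain.

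Before the results, 1 conflict over the samples has to be stated. A supplementary CPM table of the study lists 302 genes in 8 columns. The columns were matched to the deposited counts by proportionality, and 6 had the donor and condition of the sample label, whereas the other 2, those of R02046, had the opposite conditions. Values are therefore given first with the deposited labels. For most members they are also given with the R02046 libraries exchanged and over the 3 donors without R02046. Where a value stands alone, it is the one with the deposited labels. Exchanging these libraries turns the sign of R02046's differences and leaves those of the other donors as they are. Which assignment holds was not tested.

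Total counts ran from 9231109 to 32790348 per library, so that 3 counts, the limit that a count of 0 allows, correspond to 0.0915 to 0.325 CPM (read counts scaled to library size). This limit covers counting error only. Of 11 microglial markers, 10 were in the files, with a summed level of 3890 to 4677 CPM with uLPS and 3530 to 4560 CPM with MRS2578, and 8 were at 1 CPM or more in every library. The homeostatic markers CX3CR1, at 0.0508 to 2.21 CPM, and TMEM119, at 0 to 0.316 CPM, were at or near 0 in most libraries. P2RY12, also a homeostatic marker, was present in every library, at 5.70 to 13.3 CPM. Lymphocyte markers, 7 of 8 in the files, summed to at most 0.758 CPM, with NKG7 at 0 in all libraries. Summed fibroblast markers, 4 of 4, ranged from 67.3 to 861 CPM with uLPS and from 145 to 406 CPM with MRS2578. Summed levels were 238 to 407 and 223 to 304 CPM for 5 of 6 oligodendrocyte markers, 68.8 to 187 and 99.2 to 167 CPM for 5 of 5 astrocyte markers, and 157 to 239 and 158 to 295 CPM for 6 of 6 endothelial and mural markers. Their part in the results below was not tested, and in bulk RNA fewer cells of a type and less RNA per cell cannot be told apart.

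The genes are placed on the macaque genome Mmul_10 at their RefSeq positions, matched by symbol to the Ensembl identifiers of the counts. TNF (ENSMMUG00000045654, chr4:137934540-137937146, minus strand) and LTB (ENSMMUG00000008849, chr4:137930251-137932324, plus strand) are neighbours, 2216 bases apart on opposite strands, and LTA lies 1418 bases from TNF on its strand. TNFRSF1B (ENSMMUG00000021447, chr1:212241151-212284662, minus strand) and TNFRSF9 (ENSMMUG00000016546, chr1:216578299-216598910, plus strand) share a chromosome. The others are TNFSF9 (ENSMMUG00000001985, chr19:6465276-6469514, plus), TNFSF10 (ENSMMUG00000019302, chr2:77430803-77448530, minus), TNFSF13B (ENSMMUG00000008040, chr17:89805960-89845887, plus), TNFSF15 (ENSMMUG00000012892, chr15:28033870-28050336, plus) and TNFRSF1A (ENSMMUG00000000377, chr11:6461051-6475066, minus). The lncRNA gene LOC114674118 overlaps TNFRSF1B on the opposite strand. The libraries are directional, but the strand setting of the counting is not given in the sources used here, so reads of this pair may not have been told apart. PLEKHG6 lies 255 bases from TNFRSF1A on the opposite strand. LST1 and the lncRNA gene LOC100427033 lie within 10000 bases of both TNF and LTB. Within the same distance, NCR3 lies near LTB and the transcribed pseudogene LOC703145 near TNFSF9.

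Because NF-κB acts downstream of both TLR4 and these receptors, the 250 bases before each annotated start were searched on both strands for an NF-κB motif, GGG with any 2 bases and then TTTCC, and for a looser form that includes it, GGG with any 5 bases and then CC. The stricter form was found before 3 of the 9 genes, LTB, TNFSF15 and TNFRSF9. It was found before 271 of 20782 protein-coding genes with a full window on an assembled chromosome, or 1.3%. The looser form was found before 7 of 9 and before 54.7% of these protein-coding genes. Annotated starts were not checked against the sites where transcription begins. For TNF, an annotated start codon lies at the annotated start itself, so its window may not hold its promoter. The windows with the stricter form are shown because they are the places where members of this family share these letters. They are read 5′ to 3′ on the strand of the gene, with the match in capitals.
LTB, chr4:137930001-137930250, plus strand: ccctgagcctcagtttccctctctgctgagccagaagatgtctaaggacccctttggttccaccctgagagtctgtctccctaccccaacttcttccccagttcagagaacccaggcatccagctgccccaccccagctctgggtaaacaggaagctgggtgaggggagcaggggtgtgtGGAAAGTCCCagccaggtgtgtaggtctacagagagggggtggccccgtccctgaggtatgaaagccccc
TNFSF15, chr15:28033620-28033869, plus strand: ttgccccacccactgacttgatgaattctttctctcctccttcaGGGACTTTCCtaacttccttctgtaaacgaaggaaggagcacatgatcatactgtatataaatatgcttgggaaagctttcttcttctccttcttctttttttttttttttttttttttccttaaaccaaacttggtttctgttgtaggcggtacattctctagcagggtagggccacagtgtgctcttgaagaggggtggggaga
TNFRSF9, chr1:216578049-216578298, plus strand: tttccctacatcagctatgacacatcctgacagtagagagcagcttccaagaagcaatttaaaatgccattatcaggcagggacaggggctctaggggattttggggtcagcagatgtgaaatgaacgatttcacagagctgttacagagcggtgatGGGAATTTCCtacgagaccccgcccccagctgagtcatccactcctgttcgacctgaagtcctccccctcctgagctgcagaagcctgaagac
The match lay 70 to 61 bases before the start of LTB, on the opposite strand, 206 to 197 bases before that of TNFSF15 and 93 to 84 bases before that of TNFRSF9. A match is only a description of the letters in the window. TNFSF15 was more abundant than LTB and TNFRSF9, and the 3 genes did not share a direction of difference with MRS2578.

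Compared per kilobase of exon, which allows levels of different genes to be set beside each other, the receptor TNFRSF1B was the most abundant transcript with uLPS, at 263 ± 82.1 CPM per kilobase (SD, n = 4). TNF followed at 111 ± 50.9 and TNFRSF1A, its other receptor, at 88.8 ± 2.46 CPM per kilobase. Intermediate levels were found for the ligands TNFSF15 (22.3 ± 6.84), TNFSF10 (14.6 ± 20.4) and TNFSF13B (13.4 ± 7.68 CPM per kilobase). TNFSF9, at 2.53 ± 0.827, its receptor TNFRSF9, at 0.790 ± 0.768, and LTB, at 0.650 ± 0.254 CPM per kilobase, were scarce. Exon lengths are those of the RefSeq annotation, matched by symbol, whereas the counts carry Ensembl identifiers. Whether the counted gene models have the same lengths was not checked.

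Several neighbours in this order did not differ beyond their spread. TNFRSF1B was above TNF in 4 of 4 donors in each condition. TNF was above TNFRSF1A in 2 of 4 donors with uLPS and in 1 of 4 with MRS2578. TNFSF10 was above TNFSF13B in 1 of 4 donors in each condition, and its higher mean came from R12016. TNFRSF1A above TNFSF15, TNFSF13B above TNFSF9 and TNFSF9 above TNFRSF9 each held in 4 of 4 donors in both conditions. TNFRSF9 was above LTB in 2 of 4 donors with uLPS and in 3 of 4 with MRS2578. With MRS2578, TNFRSF1A (89.4 ± 6.61 CPM per kilobase) was listed ahead of TNF (82.0 ± 19.1) and TNFSF13B (9.89 ± 4.18) ahead of TNFSF10 (8.97 ± 12.1), with overlapping ranges.

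**Figure D1:**
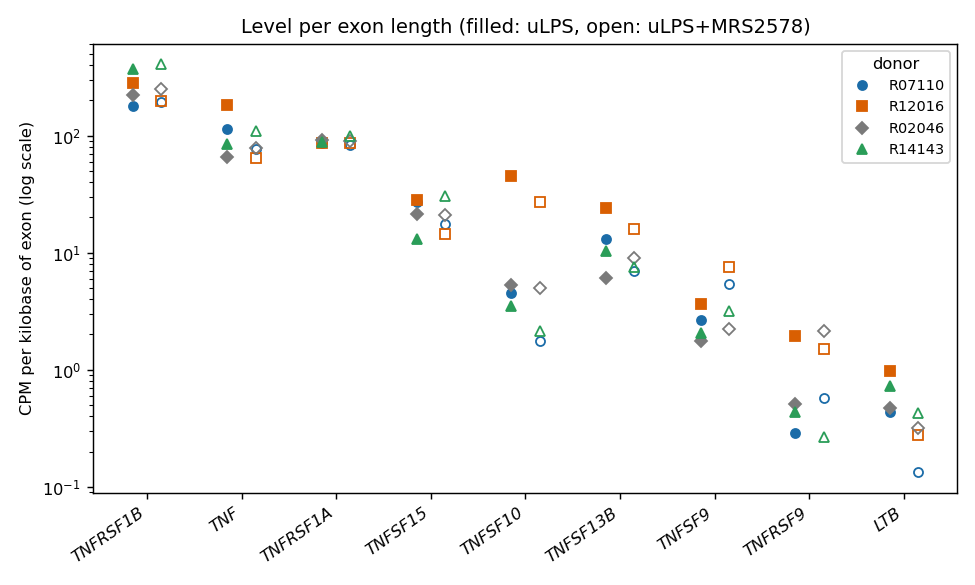
Level of each gene in CPM per kilobase of exon (log axis), with 1 point per library, filled for uLPS and open for uLPS with MRS2578, shaped by donor. The points of TNFRSF1A lie close together, from 83.4 to 98.6, whereas those of TNFSF10 are spread from 1.77 to 45.2.

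The donors differed far more in some members than in others. TNFSF10 varied most, with an SD of the 4 donor means of 1.71 on the log2 CPM scale, against a median of 0.249 over all genes tested. TNFRSF9 (0.97), TNFSF13B (0.62), TNFSF9 (0.60) and TNFRSF1B (0.44) also varied more than the median gene, and TNF (0.25) was close to it. LTB had an SD of 0.40 but was not among the genes tested. With 3 to 14 reads per library for LTB and 5 to 32 for TNFRSF9, their spread was not separated from counting error. TNFRSF1A, with an SD of 0.0635, and TNFSF15, with 0.0615, were at nearly the same mean in every donor. These means average both conditions, and within a condition the donors did differ in TNFSF15. With uLPS it ran from 21.6 CPM in R14143 to 46.4 CPM in R12016. With MRS2578 it ran from 23.9 CPM in R12016 to 50.6 CPM in R14143. The median absolute difference between the conditions within donors was 0.78 for TNFSF15, with R02046 near 0, and 0.049 for TNFRSF1A. The median of this quantity over all genes tested was 0.241.

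The within-animal comparison of uLPS and MRS2578 with uLPS alone was tested by edgeR's quasi-likelihood model, in which each donor formed a block, and p-values were adjusted by Benjamini-Hochberg over every gene in the fit. Under the deposited labels, 0 of 12131 genes passed an adjusted p of 0.05, a background of 0%, and 624, or 5.14%, had an unadjusted p under 0.05. With the R02046 libraries exchanged, 75 genes passed, 0.618% of those tested, of which 63 were lower and 12 higher with MRS2578. Without R02046, 0 of 12295 genes passed (0%) and 1670 had an unadjusted p under 0.05 (13.6%).

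Of the 9 members, 8 passed the filter on low counts and were tested, all except LTB, and 0 of 8 passed the adjusted threshold under any of the 3 assignments. With the deposited labels, 5 of the 8 had a lower and 3 a higher fitted value with MRS2578, with a median log2 fold change of -0.06 against -0.01 over all genes tested, of which 52.1% were lower. The 2 members with an unadjusted p under 0.05 were TNFSF10 and TNFSF9. With the R02046 libraries exchanged, 6 were lower and 2 higher, with a median of -0.30 against 0.0012 over all genes, of which 49.8% were lower, and 3 had an unadjusted p under 0.05, against 16.4% of all genes. The smallest adjusted p of a member was then 0.0524, for TNFSF13B. Without R02046, 6 were lower and 2 higher, with a median of -0.11 against -0.0035 over all genes, of which 50.5% were lower.

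**Figure D2:**
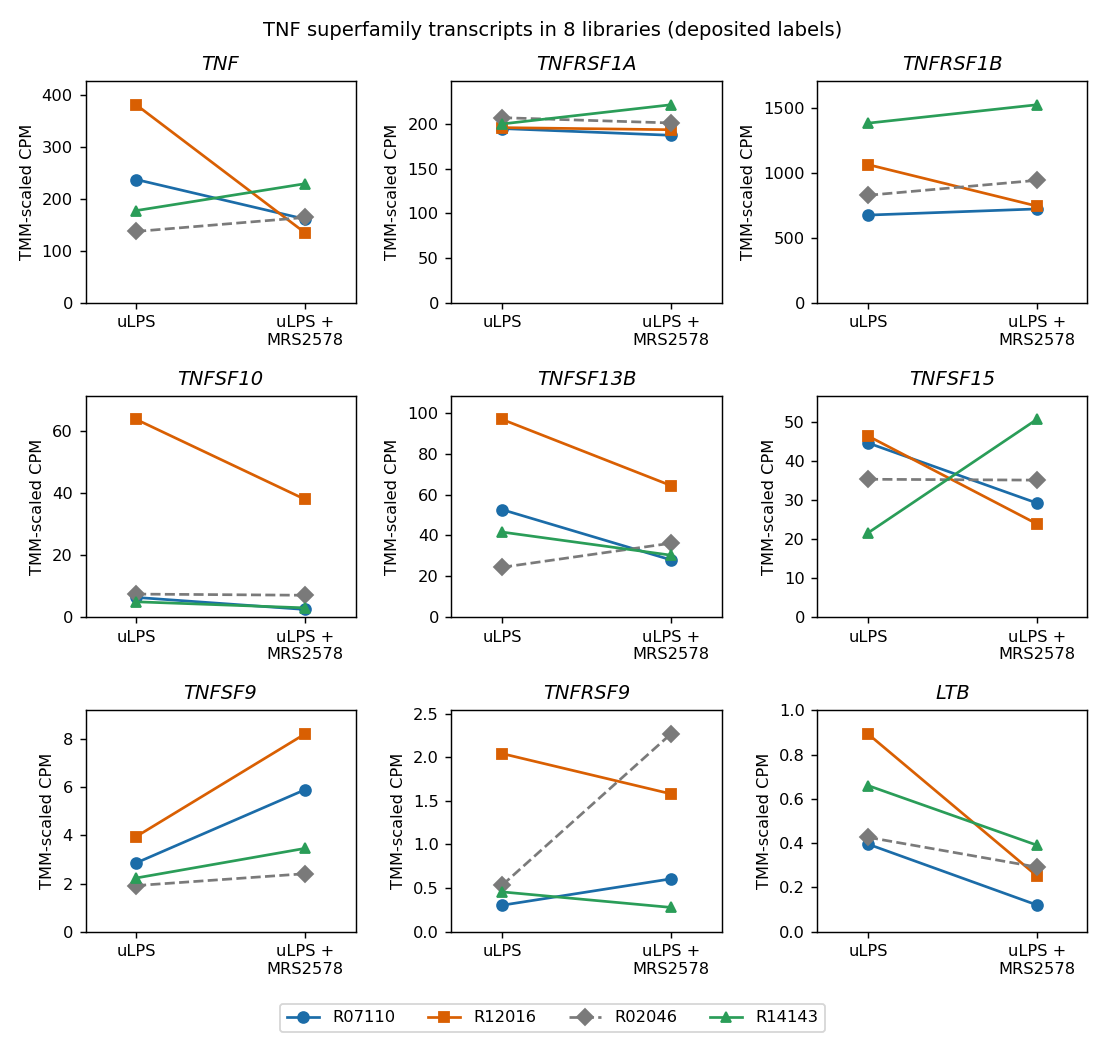
TMM-scaled CPM of the 9 genes in the 8 libraries with the deposited labels, with a line joining the libraries of each donor and a dashed line for R02046, whose labels are in conflict. All 4 lines end higher for TNFSF9 and lower for TNFSF10 and LTB, whereas the lines of TNF and TNFSF15 cross.

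Within donors, LTB and TNFSF10 were lower and TNFSF9 was higher with MRS2578 in all 4 donors with the deposited labels, which makes 2 of 9 members lower throughout and 1 of 9 higher throughout. Without LTB, which was not tested, 1 of 8 was lower and 1 of 8 higher. Over the 12131 genes tested, 6.49% were lower and 6.43% higher in every donor, or 12.9% in either direction. With the R02046 libraries exchanged, only TNFSF13B kept 1 direction in all donors, being lower, against 13.2% of all genes (10.6% were higher and 23.8% in either direction). Among R07110, R12016 and R14143, the members lower in all were LTB, TNFSF10 and TNFSF13B, and TNFSF9 was higher in all. Leaving LTB out, 2 of 8 were lower in all and 1 of 8 higher, against 19.8% and 17% of all genes. In either direction the share of all genes was 36.8%. With 4 donors, the smallest p that an exact two-sided sign-flip permutation test allows is 0.13 (1 in 8), and with 3 it is 0.25.

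TNF, the founding ligand and a main inflammatory cytokine of microglia, was at 237, 381, 137 and 177 CPM with uLPS in R07110, R12016, R02046 and R14143, in this order of donors throughout. With MRS2578 it was at 161, 135, 164 and 229 CPM. The conditions overlapped, and TNF was lower with MRS2578 in both males and, as labelled, higher in both females. The within-donor log2 differences were -0.56, -1.50, 0.26 and 0.37. The log2 fold change was -0.35 ± 0.30 (SE, edgeR adjusted p = 0.901) with the deposited labels, -0.48 ± 0.26 (adjusted p = 0.395) with R02046 exchanged and -0.56 ± 0.34 (adjusted p = 0.528) without R02046. With the deposited labels R12016 decided the sign, since the log2 fold change without this donor was 0.03. With R02046 exchanged it was -0.14 without R12016.

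TNFSF10 encodes TRAIL, a ligand of death receptors. Its levels were 6.39, 63.8, 7.46 and 4.98 CPM with uLPS and 2.51, 38.1, 7.09 and 3.02 CPM with MRS2578. R12016 stood above the other donors in each condition, and each donor's library was lower with MRS2578, by the least in R02046. The log2 differences were -1.31, -0.75, -0.07 and -0.70. The log2 fold change was -0.73 ± 0.21 (edgeR adjusted p = 0.878), and it was -0.71 ± 0.21 (adjusted p = 0.159) with R02046 exchanged and -0.92 ± 0.18 (adjusted p = 0.160) without R02046.

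TNFSF13B encodes BAFF, a survival factor of B cells that myeloid cells produce. It was at 52.6, 96.8, 24.4 and 41.6 CPM with uLPS and at 28.0, 64.4, 36.2 and 30.3 CPM with MRS2578. The log2 differences were -0.91, -0.59, 0.56 and -0.46, so that R02046, as labelled, was the only donor with a higher value with MRS2578. The labels of R02046 thus set its value: the log2 fold change was -0.36 ± 0.23 (edgeR adjusted p = 0.878) as deposited, -0.63 ± 0.11 (adjusted p = 0.0524) exchanged and -0.65 ± 0.13 (adjusted p = 0.160) over the other 3 donors. With exchange, the difference was in the same direction in 4 of 4 donors, but the CPM values of the conditions still overlapped.

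TNFSF9, the ligand of TNFRSF9 known as 4-1BBL, was at 2.86, 3.95, 1.92 and 2.23 CPM with uLPS and at 5.90, 8.22, 2.41 and 3.46 CPM with MRS2578. These levels rest on 18 to 146 reads per library. The ranges overlapped because donors differed, while each donor was higher with MRS2578 as labelled, by 1.02, 1.04, 0.31 and 0.61 on the log2 scale. The log2 fold change was 0.83 ± 0.21 (edgeR adjusted p = 0.878) as deposited, 0.76 ± 0.25 (adjusted p = 0.192) with R02046 exchanged and 0.93 ± 0.21 (adjusted p = 0.183) without R02046.

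TNFSF15 encodes TL1A, a ligand that costimulates T cells. It was at 44.6, 46.4, 35.3 and 21.6 CPM with uLPS and at 29.2, 23.9, 35.1 and 50.6 CPM with MRS2578. It was lower in both males, nearly level in R02046 and higher in R14143, with log2 differences of -0.61, -0.95, -0.01 and 1.23. The log2 fold change was -0.10 ± 0.34 (edgeR adjusted p = 0.976) and it was -0.10 (adjusted p = 0.913) with R02046 exchanged. Leaving out R07110 or R12016 turned its sign, to 0.08 and 0.20.

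LTB, which encodes lymphotoxin beta, the membrane anchor of lymphotoxin heterotrimers, was close to the detection limit. It had 13, 14, 4 and 13 reads with uLPS and 3, 4, 4 and 7 reads with MRS2578, or 0.40, 0.89, 0.43 and 0.66 CPM against 0.12, 0.25, 0.29 and 0.39 CPM. It was the only member whose conditions did not overlap with the deposited labels, with the lowest uLPS value at 0.396 and the highest MRS2578 value at 0.391 CPM. Scaled to total counts alone, these were 0.396 and 0.402 CPM and the conditions overlapped. Of all genes tested, which do not hold LTB, 1.08% did not overlap. With R02046 exchanged they overlapped, and 0 of 9 members then stood apart, against 2.97% of all genes. The log2 differences, with a prior count of 2, were -1.14, -1.48, -0.42 and -0.62, and no fold change is given because of the few reads.

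**Figure D3:**
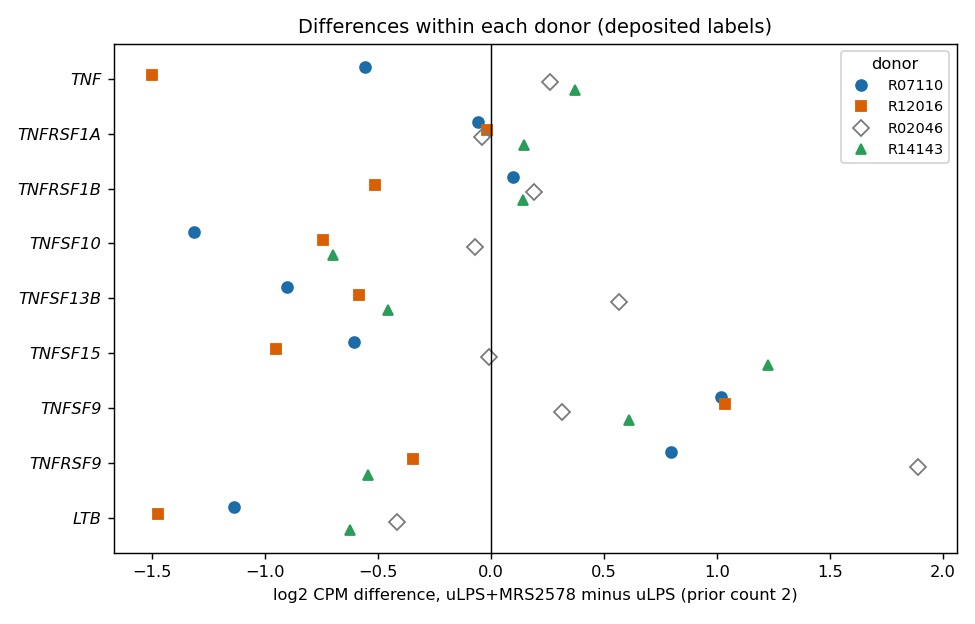
Difference in log2 CPM between uLPS with MRS2578 and uLPS alone within each donor (x axis) for the 9 genes, with the deposited labels. Open diamonds mark R02046, which would be mirrored about 0 with its libraries exchanged, and the points of TNFRSF1A lie within 0.15 of 0.

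TNFRSF1A, the death domain receptor of TNF that most cells carry, was the steadiest member. It was at 195, 196, 207 and 200.2 CPM with uLPS and at 187, 194, 201 and 222 CPM with MRS2578. The libraries differed by little in either condition, with a log2 fold change of 0.01 ± 0.09 (edgeR adjusted p = 0.993), 0.03 ± 0.08 with R02046 exchanged and 0.02 ± 0.10 without R02046.

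TNFRSF1B, the TRAF-recruiting receptor that also binds membrane TNF, was at 676, 1066, 829 and 1387 CPM with uLPS and at 724, 746, 945 and 1529 CPM with MRS2578. R14143 was highest in both conditions, and R12016 alone was lower with MRS2578. The log2 differences were 0.10, -0.52, 0.19 and 0.14, and the log2 fold change was -0.02 ± 0.15 (edgeR adjusted p = 0.991) as deposited. It was -0.12 with R02046 exchanged and -0.09 without R02046. With the deposited labels and without R12016 it was 0.15. The ratio of TNFRSF1B to TNFRSF1A counts went from 3.47 to 3.86 in R07110, from 5.44 to 3.85 in R12016, from 4.00 to 4.69 in R02046 as labelled and from 6.93 to 6.90 in R14143. This ratio of counts, which is not scaled to the lengths of the genes, had no common direction over donors.

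TNFRSF9, the receptor of TNFSF9 also called 4-1BB, had 10, 32, 5 and 9 reads with uLPS and 15, 25, 31 and 5 reads with MRS2578, or 0.30, 2.04, 0.53 and 0.46 CPM against 0.61, 1.58, 2.27 and 0.28 CPM. The differences had no common direction, at 0.79, -0.35, 1.89 and -0.55 on the log2 scale. Its fold change depended on R02046, with a log2 fold change of 0.44 ± 0.51 (edgeR adjusted p = 0.927) as deposited, -0.48 ± 0.49 (adjusted p = 0.684) exchanged and -0.03 ± 0.51 (adjusted p = 0.988) without R02046. Of this ligand and receptor pair, TNFSF9 was higher with MRS2578 in 4 of 4 donors as labelled and TNFRSF9 in 2 of 4.

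**Figure D4:**
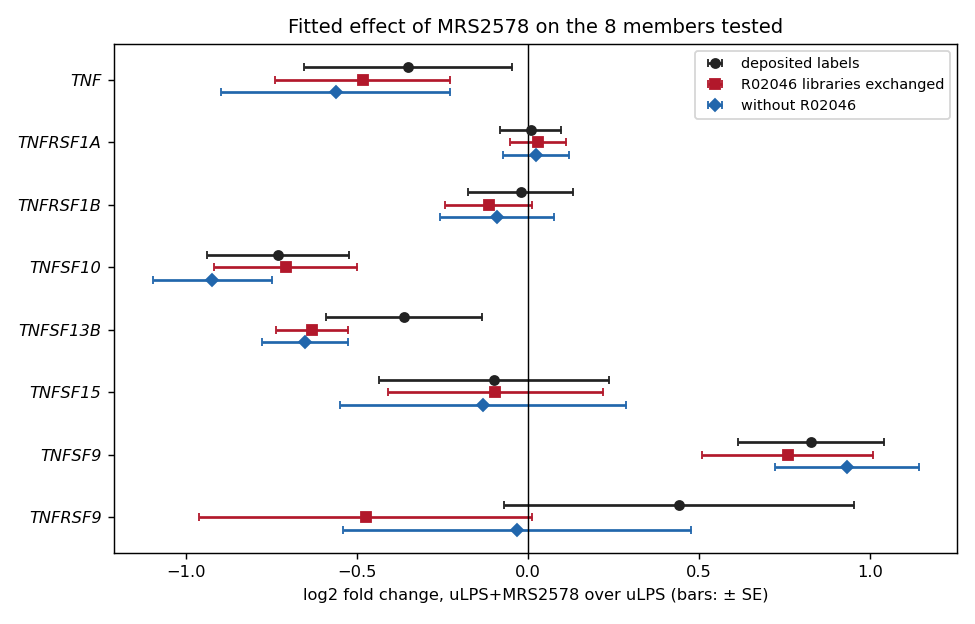
Log2 fold change of uLPS with MRS2578 over uLPS alone from edgeR with the donor as a block, for the 8 genes tested, with bars of 1 SE. Black circles are the deposited labels, red squares the R02046 libraries exchanged and blue diamonds the 3 donors without R02046; TNFRSF9 lies on both sides of 0.

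Of 11 other ligands of the superfamily, all had a row and 5 passed the filter, of which 4 were lower and 1 higher with MRS2578 as labelled, with 0 called and a median log2 fold change of -0.35. With R02046 exchanged, 3 were lower and 2 higher with a median of -0.42, and 0 were called. The 3 with the highest mean CPM were TNFSF8, TNFSF12 and TNFSF4. TNFSF12, which encodes TWEAK, was at 68.9, 56.9, 56.1 and 48.1 CPM with uLPS and at 50.8, 37.7, 62.1 and 33.8 CPM with MRS2578, and was lower in every donor but R02046 as labelled. Its log2 fold change was -0.35 ± 0.14 (edgeR adjusted p = 0.878), and -0.42 ± 0.10 (adjusted p = 0.107) with R02046 exchanged. TNFSF8, the CD30 ligand, changed sign with that exchange, from -0.23 ± 0.17 to 0.13 ± 0.17. TNFSF4, the OX40 ligand, was at 0.64 to 3.64 CPM with uLPS and at 0.70 to 2.68 CPM with MRS2578, with a log2 fold change of -0.57 ± 0.51 as deposited. Its log2 differences were -0.62, -2.22, 1.53 and -0.33, so that R02046 alone was higher as labelled. With R02046 exchanged, TNFSF4 was lower with MRS2578 in every donor.

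Of 26 other receptors, 21 had a row and 15 were tested, of which 9 were lower and 6 higher with MRS2578 under the deposited labels and also with R02046 exchanged. None was called (0 of 15), with a median of -0.03 and -0.10. With the exchange, 8 of 15 had an unadjusted p under 0.05, against 16.4% of all genes tested, and with the deposited labels 2 of 15, against 5.14%. Those with the highest mean CPM were LTBR, TNFRSF21 and TNFRSF11A. LTBR, the receptor of lymphotoxin heterotrimers, was at 137, 155, 146 and 170.1 CPM with uLPS and at 136, 118, 131 and 155 CPM with MRS2578, with a log2 fold change of -0.18 ± 0.10 (edgeR adjusted p = 0.878). It was lower with MRS2578 in 4 of 4 donors as labelled and in 3 of 4 with R02046 exchanged. TNFRSF21, or DR6, was at 72.4, 113, 203 and 85.8 CPM with uLPS and at 117, 171, 142 and 103 CPM with MRS2578. It was higher with MRS2578 in 3 donors and lower in R02046 as labelled, so that its log2 fold change went from 0.27 ± 0.20 (adjusted p = 0.897) to 0.52 ± 0.09 (adjusted p = 0.0599) on exchange. TNFRSF11A, or RANK, was at 93.0, 50.9, 97.3 and 41.3 CPM with uLPS and at 136, 124, 78.4 and 83.1 CPM with MRS2578. It had the same pattern, with 0.64 ± 0.25 (adjusted p = 0.878) as deposited and 0.79 ± 0.16 (adjusted p = 0.074) exchanged.

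**Figure D5:**
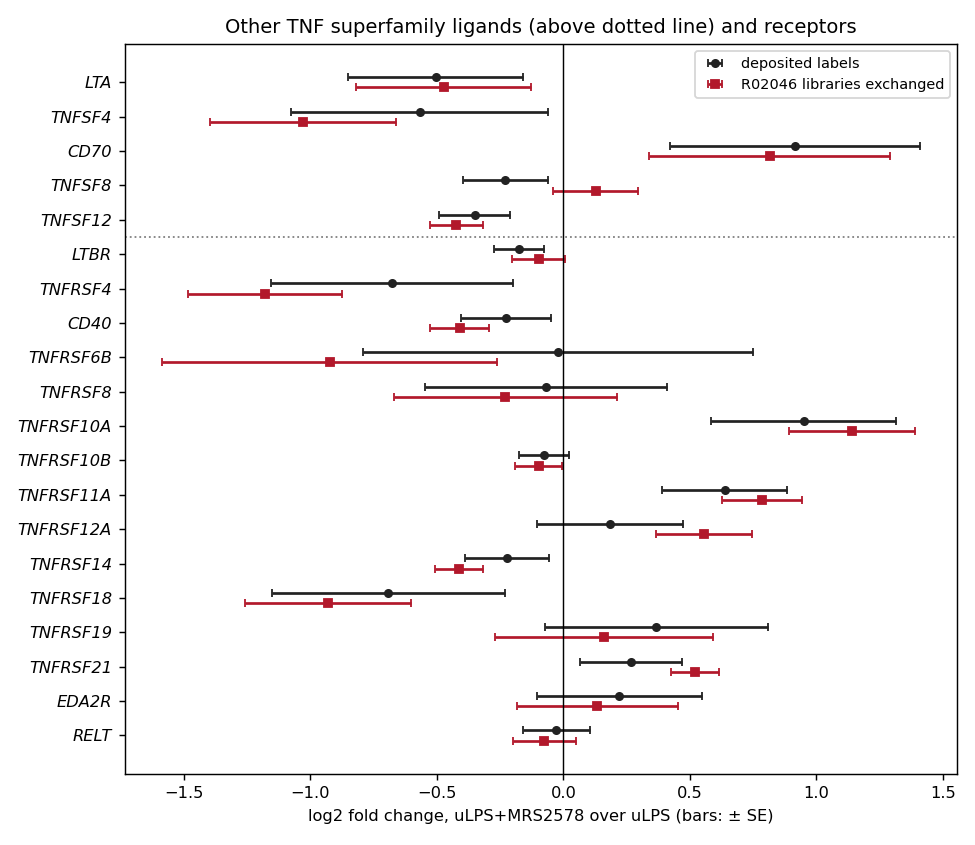
Log2 fold change of uLPS with MRS2578 over uLPS alone, with bars of 1 SE, for the 5 other ligands (above the dotted line) and 15 other receptors tested, with the deposited labels in black and with the R02046 libraries exchanged in red. TNFRSF11A and TNFRSF21 lie above 0 and TNFSF12 below 0 with either.

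Genes that act behind the receptors or release ligands were described in the same way. Of 23, 22 had a row and were tested, 16 lower and 6 higher with MRS2578 as labelled, with a median log2 fold change of -0.08 and 0 called. With R02046 exchanged, 14 were lower and 8 higher, with a median of -0.13, 10 at an unadjusted p under 0.05, against 16.4% of all genes tested, and 0 called. TRAF1, an adaptor of TNFRSF1B and TNFRSF9, was at 765, 1207, 399.9 and 753 CPM with uLPS and at 504, 538, 535 and 767 CPM with MRS2578. It was lower in both males and higher in both females as labelled, with a log2 fold change of -0.33 ± 0.25 (edgeR adjusted p = 0.899). With R02046 exchanged, R14143 alone was higher, by 0.03 on the log2 scale. ADAM17, the protease that releases TNF and its receptors from the membrane, had a log2 fold change of 0.02 ± 0.11 as deposited and -0.14 ± 0.09 exchanged, and RHBDF2, which brings ADAM17 to the cell surface, had -0.11 ± 0.11 and -0.19 ± 0.08.

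P2RY6, the receptor that MRS2578 blocks, was at 69.1, 52.6, 67.9 and 98.5 CPM with uLPS and at 51.9, 49.5, 79.8 and 110 CPM with MRS2578, so its transcript was present in every culture. The antagonist acts on the protein, and these levels do not check the block. Its log2 fold change was -0.03 ± 0.13 (edgeR adjusted p = 0.986).

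The genes whose log2 CPM was most like that of TNF over the 8 libraries, by Pearson's r, were RUBCN (0.984), PPP1R21 (0.971), KCTD14 (0.970), TCEANC2 (0.946) and C11H12orf4 (0.945). These are the highest of all genes tested, and the points share libraries and donors.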

How the data were processed

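Poly(A) RNA of macaque microglia was sequenced in 8 directional libraries. The study's methods describe trimming with fastp, alignment to Mmul_10 with STAR and HTSeq counting of unique reads within exons, whereas the submitters' processing notes list Trimmomatic 0.30, TopHat2 2.0.14, SAMtools 1.3 and HTSeq 0.6.1p1. The deposited values are whole-number counts per gene, without normalization. Uncounted multi-mapped reads lower genes with near-identical copies.

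Conditions and donors came from the sample labels, and donor sex and age from the study's methods. The members and gene lists were chosen with earlier results of these data known. The genes named are the members, the 3 genes of each list with the highest mean CPM, any listed gene called in the fits with the filter, the 5 genes most like TNF, neighbours within 10000 bases and P2RY6, with exceptions stated. In R 4.3.3, edgeR 4.0.16 fitted TMM-scaled counts that passed filterByExpr (minimum count 10) by its quasi-likelihood model, blocking on donor, as both libraries of a donor come from 1 animal. Across genes, the 2 libraries of 1 animal deviated together from their groups, with correlations of 0.458 to 0.602. A call is an adjusted p of under 0.05, and SE is that implied by the F statistic. A prior count of 2 was added for log2 CPM. No pair of libraries was a duplicate (chi-square per degree of freedom at least 15.8).

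Alternatives were other size factors, filters and tests (DESeq2 1.42.0, likelihood ratio), no block, each donor left out, a prior count of 0.25, unscaled CPM and lengths of the longest transcript. edgeR's earlier quasi-likelihood estimation, and the exchange without a filter, were added after seeing the data. Positions, exon lengths and windows come from the RefSeq annotation and genome of Mmul_10, matched by symbol for all 9 genes.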

Additional observations from a re-analysis of the deposited data

Results flagged for a closer look

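TNFSF10 in R12016 stood apart from the other 3 donors with uLPS, at 63.8 CPM, with a gap of 0.843 of the range on the log2 scale. The within-donor difference of TNFRSF1B in R12016, -0.52 on the log2 scale, stood apart in the same way (0.872 of the range). TNFSF8 in the R02046 library labelled MRS2578, at 38.1 CPM, and TRAF1 in the R14143 library with MRS2578, at 767 CPM, were also apart from their groups (0.833 and 0.845). These are 4 of 72 groups of 4 values examined by Dixon's criterion, and chance flags about 1 in 20 groups.

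The members, the other genes named from the lists, P2RY6 and the 5 genes most like TNF, 24 genes in all, were examined for opposite directions in the sexes. With the deposited labels, 5 of the 24 had a lower level with MRS2578 in both males and a higher level in both females, against opposite directions in 23.7% of the 12131 genes tested. The mean log2 difference of the females exceeded that of the males by 1.34 for TNF (0.31 against -1.03), by 1.11 for TRAF1 (0.22 against -0.89), by 0.44 for P2RY6 (0.19 against -0.25), by 0.70 for RUBCN and by 0.29 for PPP1R21, of which the last 2 were picked for their likeness to TNF. The differences between the sexes were not tested. With the R02046 libraries exchanged, none of these 5 kept opposite directions in the sexes, and 4 others of the 24 had them, TNFSF15, TNFRSF1A, TNFSF8 and KCTD14, against 10.6% of all genes tested.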

How the results depend on the processing

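The number of genes called depended on the R02046 libraries and the test: 0 with the deposited labels, 1 with DESeq2's Wald test, 5 with edgeR's likelihood ratio test, 75 with R02046 exchanged, and, with that exchange, 616 by the likelihood ratio test, 583 by DESeq2, 39 by edgeR's earlier quasi-likelihood estimation and 86 with no filter on low counts. Leaving out 1 donor gave 0 calls each time with the deposited labels and, with the exchange, 0 without R07110, 5 without R12016 and 918 without R14143. Without the replicate block, 0 genes were called under either assignment. No member was called with the deposited labels under any alternative. With the exchange, 1 of the 8 members tested, TNFSF13B, was called in some fits, and no member was called in the others. It was called without R14143 (adjusted p = 0.0156), by the likelihood ratio test (0.000148) and by DESeq2 (0.000185). Of all genes tested, these fits called 918 of 12128, 616 of 12131 and 583 of 12131, in that order. TNFSF9 ranged from 0.59 to 0.93, TNFSF10 from -0.92 to -0.50 and TNFSF13B from -0.70 to -0.18 over 20 alternatives, with no change of sign. Leaving out 1 donor moved the log2 fold change of TNF between -0.60 and 0.027 (without R12016), of TNFSF15 between -0.53 and 0.20 (without R12016; 0.083 without R07110), of TNFRSF1A between -0.043 (without R14143) and 0.026, of TNFRSF1B between -0.092 and 0.15 (without R12016) and of TNFRSF9 between -0.032 (without R02046) and 0.96. With the exchange, signs turned for TNFSF15 (0.094 without R07110 and 0.20 without R12016), TNFRSF1A (-0.014 without R14143), TNFRSF1B (0.024 without R12016) and TNFRSF9 (-0.48). TNFRSF9 was then -0.90 without R07110, -0.55 without R12016, -0.45 without R14143, -0.56 with no replicate block, -0.49 by the likelihood ratio test, -0.52 by DESeq2, -0.49 by the earlier estimation and -0.50 with no filter. The cause of these differences was not tested. LTB entered only the fits without a filter on low counts. LTB and TNFRSF9, with 3 to 32 reads per library, are limited by depth.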

Other observations

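TNFSF14, which encodes LIGHT, a ligand of LTBR and TNFRSF14, was below the filter on low counts under all 3 assignments, and it is named after its values were seen. It had 2, 2, 4 and 0 reads with uLPS in R07110, R12016, R02046 and R14143, and 105, 140, 0 and 1 reads with MRS2578. The reads were thus almost all in the MRS2578 libraries of the 2 male donors, at 4.24 and 8.85 CPM. In the fit without the filter, its edgeR adjusted p was 0.879 as labelled, 0.0114 with the R02046 libraries exchanged and 0.132 without R02046, so that it was called in the exchanged fit alone. That combination of settings was added after seeing the data.

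Other listed genes, also named after their values were seen, had adjusted p-values just above 0.05 with the R02046 libraries exchanged. TNFAIP3, which encodes the NF-κB inhibitor A20, was at 325, 567, 221 and 390.0 CPM with uLPS and at 242, 322, 307 and 283 CPM with MRS2578, with a log2 fold change of -0.55 (edgeR adjusted p = 0.057) under the exchange. BIRC3, which encodes the ubiquitin ligase cIAP2, was at 338, 487, 255 and 235 CPM against 244, 244, 410 and 186 CPM, with -0.62 (adjusted p = 0.063). Both were lower with MRS2578 in 3 of 4 donors as labelled and in 4 of 4 with the exchange. Under the exchange, 8 of the 22 tested genes that act behind the receptors or release ligands were lower in every donor. The share over all genes tested was 13.2%.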
